A study of Mus musculus with 19 samples.

Results

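The activated stroma, with the matricellular proteins it lays down, was followed through 10 genes in mouse skin tumours that expressed the oncogene BRAFV600E and in normal skin. They were taken by name: periostin (Postn), tenascin C (Tnc), the thrombospondins Thbs1 and Thbs2, Sparc, fibronectin (Fn1), osteopontin (Spp1), smooth muscle actin (Acta2), transgelin (Tagln) and fibroblast activation protein (Fap). All 10 were present among the 34807 genes of the table and all 10 passed the filter on low counts.

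RNA from whole tissue was sequenced as 1 library per sample, in 15 squamous tumours and 4 samples of normal skin, all from female mice. Tumour groups are named after the promoter of the inducible Cre recombinase that switched BRAFV600E on: 6 Ivl tumours (involucrin promoter, labelled Ivl:BRAFV600E), 5 K5 tumours (keratin 5 promoter, K5:BRAFV600E) and 4 K14 tumours (keratin 14 promoter, K14:BRAFV600E), with wild-type skin (WT) as the control. Mice were on a C57BL/6J background, and the labels give 7 to 20 weeks as the age at induction with tamoxifen. By the methods, the shaved back was treated with tamoxifen for Ivl and with 4-hydroxytamoxifen for K5 and K14, and Ivl tumours took longer to appear and grew at several body sites. Drug, tumour age, site and promoter cannot be told apart between Ivl and K5/K14 tumours. Each of these promoters acts in keratinocytes, so fibroblasts, vessels and immune cells reached the libraries only as the tissue around the mutant cells. The labels do not say whether each sample came from a separate animal, and p-values here measure the spread between these samples.

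Matricellular proteins are secreted into the extracellular matrix and act there on cells, through integrins and other receptors, more than as structural fibres. Postn, Tnc, Thbs1, Thbs2, Sparc and Spp1 belong to this class, while Fn1 builds fibrils on which other matrix proteins are laid down. In skin they are known from wounds, where fibroblasts are activated and some become contractile myofibroblasts that make Acta2 and Tagln, and where Fap, a serine protease of the cell surface, marks activated fibroblasts. Several of them, among them Tnc, Thbs1, Fn1 and Spp1, can also be made by keratinocytes or immune cells, and whole tissue does not show which cells made them.

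Totals ran from 45715309 to 72609771 estimated counts per library. The deposited table had been adjusted for a sequencing batch by the authors, and its trace touched every result. Over genes with a mean over 2 CPM (counts scaled to a common library size), the libraries Ivl 1, Ivl 2, Ivl 3 and K5 1 were compared, as a set of 4, with the remaining 15. Their means differed by at most 0.1 on the log2 scale in 96.6% of 13954 genes, against at most 64.1% for any other set of 4 that was scanned. All 10 stromal genes lay inside that window, with log2 ratios from -0.057 to 0.071. Which libraries formed a batch is not given in the sources used here, and this set was read from the values. A mean over tumours alone thus lay level with a mean that included skin, and each comparison is given over all 19 libraries and again over the 15 libraries outside the set (3 Ivl, 4 K5, 4 K14 and 4 skin). Normal skin was itself uneven: the summed level of 12 dermal fibroblast genes ran from 1024 CPM in skin 2 to 19645 in skin 4. Skin 3, at 14366, was also high and skin 1, at 3608, low. In tissue such as this, fewer cells of a type and less RNA per cell cannot be told apart.

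**Figure D1:**
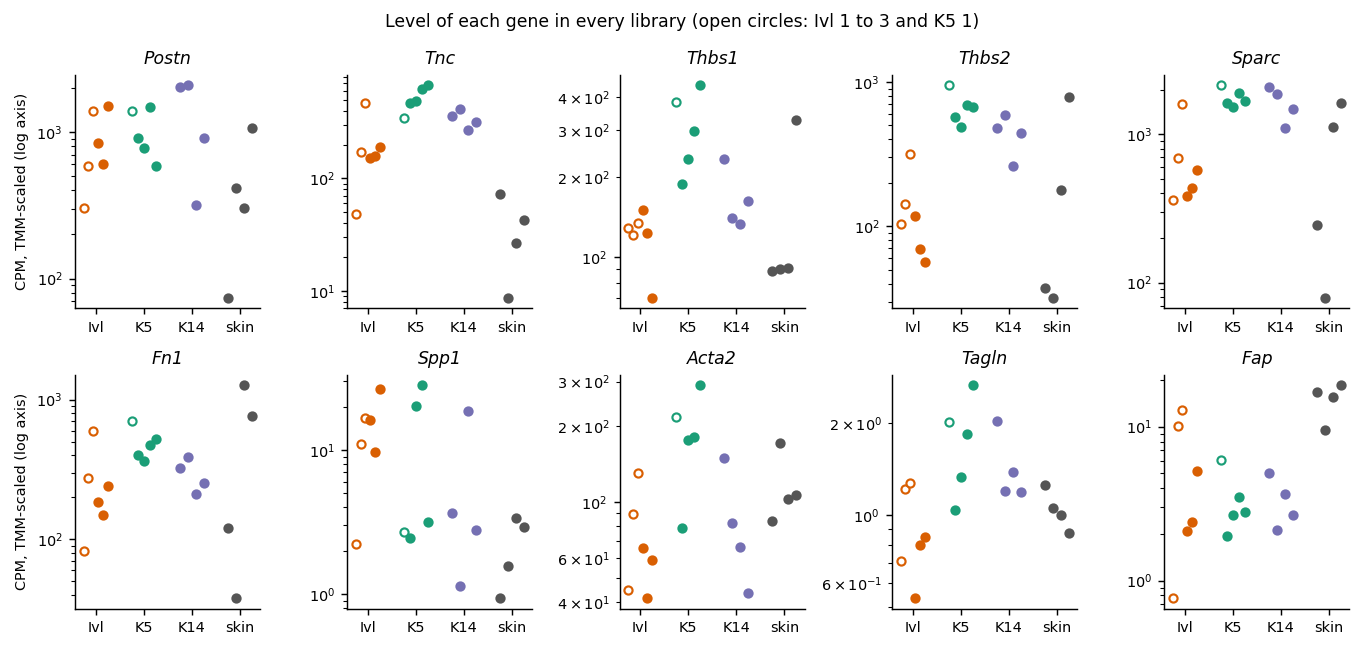
Level of each of the 10 genes in every library, in CPM scaled by the trimmed mean of M values on a log axis, with 1 circle per library and open circles for Ivl 1 to 3 and K5 1. All 9 K5 and K14 tumours lie above all 4 skin libraries for Tnc (as for 16.7% of all genes) and below them for Fap (as for 24.6%). Skin spreads over more than 10-fold for Postn, Thbs2, Sparc and Fn1.

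The order of the genes, as mean CPM per kilobase of exon, was headed by Sparc (ENSMUSG00000018593, chr11:55394500-55423183, GRCm38) in each group, with Postn (ENSMUSG00000027750, chr3:54361109-54391037) next. In K5 and K14 tumours merged (K5/K14, n = 9), Sparc stood at 454 ± 87.0 (SD) CPM per kb, Postn at 133 ± 70.7, Thbs2 at 81.6 ± 27.6, Acta2 at 64.9 ± 37.0, Tnc at 56.6 ± 17.8, Thbs1 at 40.5 ± 17.8 and Fn1 at 34.7 ± 12.8. Spp1 (5.58 ± 6.17), Tagln (0.821 ± 0.269) and Fap (0.596 ± 0.239) were far lower. Only the steps from Sparc to Postn and from Fn1 to Spp1 exceeded the sum of the SDs on either side. In normal skin (n = 4) Tnc was the seventh of the 10 at 4.83 ± 3.45 CPM per kb and Fap the eighth at 2.67 ± 0.695.

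Tnc (ENSMUSG00000028364, chr4:63959785-64047015), a large glycoprotein that is sparse in resting adult skin and made in wounds, was the gene that changed most against skin in K5/K14 tumours among the 10. Skin held 72.0, 8.67, 26.8 and 42.6 CPM, and K5/K14 tumours held from 267 to 675 with a median of 411. Every one of the 9 tumours exceeded every skin library, which held for 16.7% of all genes. Ivl tumours ran from 48.2 to 466 CPM with a median of 166, and only Ivl 1 fell inside the range of skin. In the edgeR quasi-likelihood test, with p-values adjusted over all genes tested by the Benjamini-Hochberg method, Tnc rose 11.7-fold in K5/K14 tumours (log2 3.55 ± 0.57 SE, adjusted p = 5.8e-05). It rose 5.27-fold in Ivl tumours (log2 2.40 ± 0.55, adjusted p = 0.0023). Over the 15 libraries the log2 values were 3.59 ± 0.48 (adjusted p = 1.8e-05) and 2.15 ± 0.49 (adjusted p = 0.0024), and neither call was lost when any 1 library was left out. Both comparisons use the same skin libraries.

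Fap (ENSMUSG00000000392, chr2:62500943-62574075) moved the other way, and the 4 skin libraries, at 16.8, 9.49, 15.7 and 18.5 CPM, were above all K5/K14 tumours, which ran from 1.95 to 6.04 CPM. Of all genes, 24.6% lay entirely below skin in K5/K14 tumours. Fap fell by 2.16 ± 0.47 on the log2 scale in K5/K14 tumours (adjusted p = 0.00086) and by 2.31 ± 0.27 over the 15 libraries (adjusted p = 3.1e-06). In Ivl tumours it was split: 10.1 and 12.9 CPM in Ivl 2 and Ivl 3, 0.768 in Ivl 1, and 2.1, 2.39 and 5.18 in Ivl 4 to 6. Ivl 1 to 3 belong to the set described above, whose mean for Fap lay level with a mean that included skin (log2 ratio -0.057). The part of this in the split was not tested. Against skin it fell by 1.44 ± 0.53 (adjusted p = 0.041) over 19 libraries and fell by 2.23 ± 0.38 (adjusted p = 0.00018) over the 15. The call over 19 libraries was lost, at adjusted p from 0.069 to 0.085, without any one of Ivl 4, Ivl 5, Ivl 6, skin 1, skin 3 or skin 4. Dpp4, the closest relative of Fap, was not called in either comparison (log2 -0.63 with adjusted p = 0.16 in Ivl, and -0.19 with adjusted p = 0.63 in K5/K14).

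Spp1 (ENSMUSG00000029304, chr5:104435118-104441050), a phosphoprotein of bone matrix that macrophages and epithelial cells also secrete, was low throughout. Skin held 0.936, 1.56, 3.36 and 2.94 CPM. Ivl tumours held 2.21, 11.02, 16.7, 16.0, 9.60 and 26.6 CPM, so that all but Ivl 1 lay above skin. K5/K14 tumours fell into a high trio (K5 3 at 20.1, K5 4 at 28.0 and K14 3 at 18.7 CPM) and 6 tumours between 1.13 and 3.64 CPM, close to the range of skin. Spp1 rose against skin in Ivl tumours (log2 2.63 ± 0.91, adjusted p = 0.033, and 2.98 ± 1.01, adjusted p = 0.024, over the 15) and in K5/K14 tumours (2.06 ± 0.86, adjusted p = 0.044, and 2.18 ± 0.88, adjusted p = 0.042, over the 15). The Ivl call was lost without Ivl 4, Ivl 6, skin 1, skin 2 or skin 4, at adjusted p from 0.051 to 0.083, and over the 15 libraries without Ivl 6, skin 1 or skin 2, at 0.057 to 0.070. The K5/K14 call was lost in 10 of 19 such fits, at adjusted p up to 0.11: without Ivl 2, Ivl 4, Ivl 5, K5 3, K5 4, K14 3 or any 1 skin library. Over the 15 libraries it was lost in 8 such fits, without Ivl 4, K5 3, K5 4, K14 3 or any 1 skin library. A transcript of another gene, Gm42793, on the same strand covers 18.75% of the exonic bases of Spp1, with at most 3 counts in any library.

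**Figure D2:**
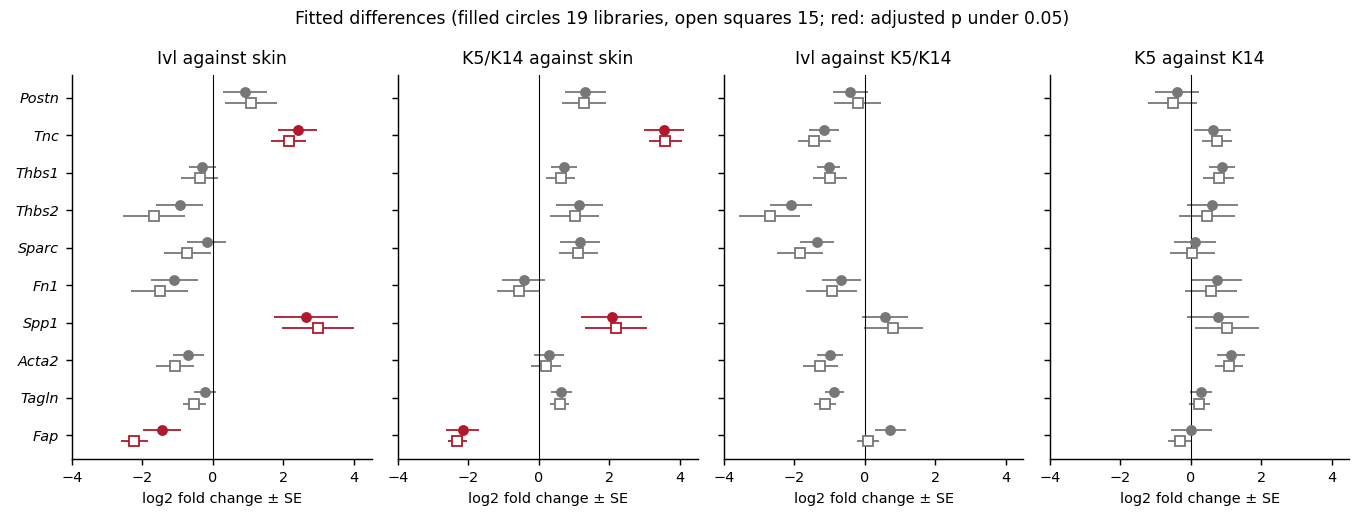
Fitted log2 fold change of each gene, with its SE, in 4 comparisons, as filled circles over 19 libraries and open squares over 15, red where the adjusted p was under 0.05. Tnc and Spp1 rose and Fap fell against skin in both tumour groups, and no gene is red between tumour groups.

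Counted together, 2 of the 10 genes were higher and 1 lower than skin in Ivl tumours, against 20.4% of all genes called higher and 15.5% called lower. Over the 15 libraries the same counts stood beside 22.2% and 32.7%. In K5/K14 tumours 2 were higher and 1 lower, against 23.2% and 38.9% of all genes, or 23.9% and 42.3% over the 15. The share of the 10 called higher was near that of all genes in both groups, and the share called lower was below it in K5/K14 tumours. The median of the 10 was -0.26 in Ivl tumours and 0.93 in K5/K14 tumours, where all genes had medians of -0.46 and -0.60. Scaling by the size factors of DESeq2 moved these last medians to -0.59 and -0.71, so a log2 value near 0 lay above the middle of the table in both comparisons.

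The other 7 genes were not called against skin, and in K5/K14 tumours Postn, Thbs1, Thbs2 and Sparc were each called once skin 4 was left out. Thbs1 (ENSMUSG00000040152, chr2:118111876-118127133), which can activate latent TGF-beta and inhibits vessel growth, was at 88.7, 90.6 and 91.2 CPM in skin 1 to 3 and at 327 in skin 4. The 9 K5/K14 tumours ran from 133 to 443 CPM, above those 3 skin libraries, and the difference was 0.72 ± 0.38 on the log2 scale (adjusted p = 0.10) but 1.44 ± 0.34 without skin 4 (adjusted p = 0.0018). Thbs2 (ENSMUSG00000023885, chr17:14665500-14694235), its relative that binds matrix metalloproteinase 2 and affects collagen fibril assembly, stood at 37.3, 31.8, 178 and 789 CPM in skin against 261 to 949.9 in K5/K14 tumours. Its difference was 1.14 ± 0.67 (adjusted p = 0.14) and, without skin 4, 2.80 ± 0.62 (adjusted p = 0.0013). All K5/K14 tumours were above the first 3 skin libraries for both thrombospondins.

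Sparc, a collagen-binding glycoprotein, gave 246, 78.9, 1121 and 1626 CPM in skin and 1106 to 2152 in K5/K14 tumours, a difference of 1.16 ± 0.56 (adjusted p = 0.075), or 1.84 ± 0.60 without skin 4 (adjusted p = 0.015). Postn, which binds collagen and aids its cross-linking, gave 74.0, 416, 304 and 1062 CPM in skin and 317 to 2079 in K5/K14 tumours. It differed by 1.32 ± 0.59 (adjusted p = 0.060), by 1.45 ± 0.57 without K14 3 (adjusted p = 0.036), and by 2.13 ± 0.63 without skin 4 (adjusted p = 0.0088). DESeq2 called it with all 19 libraries (1.21, adjusted p = 0.042). With skin 4 left out, 6 of the 10 genes were called in K5/K14 tumours, both over the other 18 libraries and within the 15, because these 4 were gained and Spp1 was lost. Of all genes, 18739 of 31719 were called over those 18 libraries and 20480 of 31630 within the 15, a share near that of the 10. Skin 4 also had the highest summed level of dermal fibroblast genes, and the part of this in the result was not tested.

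In Ivl tumours the same 4 genes were not called either. Postn ran from 302 to 1498 CPM (log2 0.91 ± 0.61, adjusted p = 0.23, and 1.69 ± 0.64 without skin 4, adjusted p = 0.0499). Thbs1 (-0.30 ± 0.39), Thbs2 (-0.95 ± 0.67) and Sparc (-0.18 ± 0.56) were not called, and each of the 3 had a positive value without skin 4, at 0.41, 0.70 and 0.49. Sparc was also positive, at 0.057, without skin 3. Over the 15 libraries, 2 genes were gained without skin 2, Thbs2 (log2 -2.08, adjusted p = 0.035) and Fn1 (-1.94, adjusted p = 0.015). Sparc was gained there too (-1.13, adjusted p = 0.046) while Spp1 was lost (adjusted p = 0.057), which made 5 called. Of all genes, 16308 of 31235 were called in that fit, a share near that of the stromal genes. Within the 15 libraries Thbs2 was also gained without skin 1 (-2.07, adjusted p = 0.042), where Spp1 was lost (adjusted p = 0.061). Postn was gained within the 15 without skin 4 (1.84, adjusted p = 0.045).

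Fn1 (ENSMUSG00000026193, chr1:71585520-71653200), which cells assemble into fibrils through integrin alpha 5 beta 1, was the most uneven gene in skin, at 120.1, 37.9, 1264 and 763 CPM. Ivl tumours ran from 82.1 to 599 CPM and K5/K14 tumours from 212 to 708, inside the range of skin. The differences were -1.10 ± 0.66 (adjusted p = 0.18) and -0.43 ± 0.61 (adjusted p = 0.55). The K5/K14 value was 0.41 without skin 3, so no direction against skin can be given for Fn1 in K5/K14 tumours.

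Acta2 (ENSMUSG00000035783, chr19:34241090-34255590), the actin of vascular smooth muscle and myofibroblasts, was at 84.0, 172, 103 and 106 CPM in skin. Ivl tumours ran from 41.5 to 130.1 CPM with a median of 62.3, and K5/K14 tumours from 43.5 to 289.5 with a median of 149.7, so both overlapped skin. The differences were -0.70 ± 0.44 (adjusted p = 0.20) and 0.29 ± 0.42 (adjusted p = 0.55). Over the 15 libraries the 3 Ivl tumours, at 65.6, 41.5 and 59.0 CPM, were all below skin (-1.07 ± 0.54, adjusted p = 0.10). The same held for 35.5% of all genes there. Acta2 shares nearly identical coding sequence with other actin genes (Actg2, Acta1, Actc1), so reads of these could be placed on one another.

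Tagln (ENSMUSG00000032085, chr9:45929619-45936058), an actin-binding protein of smooth muscle, held 0.878 to 1.25 CPM in skin, 0.536 to 1.27 in Ivl tumours and 1.04 to 2.66 in K5/K14 tumours. The differences were -0.22 ± 0.31 (adjusted p = 0.55) and 0.64 ± 0.30 (adjusted p = 0.066, and 0.048 without K5 2, where the log2 value was 0.70). These counts, 27 to 127 per library, are uncertain: exons on the other strand, of Pcsk7 and Gm48529, cover 67.86% of the exonic bases of Tagln. This limit holds for every result given for Tagln, with its ratios, calls and pairs below. The kit kept strand, but whether the counting used it is not stated.

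Other genes of the smooth muscle contractile apparatus were called where Acta2 and Tagln were not, and the difference between them was not tested in a model. Of 11 such genes, 5 were lower and 1 higher than skin in Ivl tumours, with a median log2 of -1.46, where 15.5% of all genes were lower, 20.4% higher and the median was -0.46. Mylk, the kinase that phosphorylates myosin light chain (-1.73, adjusted p = 0.0053), Lmod1, an actin filament nucleator (-1.61, adjusted p = 0.020), and Myl9, a myosin light chain (-1.27, adjusted p = 0.027), fell, and Cald1, caldesmon, rose (1.81, adjusted p = 0.014). There were 8 lower and 1 higher over the 15 libraries, where 32.7% and 22.2% of all genes were. In K5/K14 tumours 5 of 11 were lower and 2 higher, near the 38.9% and 23.2% of all genes, with Synpo2 (-2.82, adjusted p = 0.00081), Des, the muscle intermediate filament desmin (-3.40, adjusted p = 0.0023), and Myh11, the smooth muscle myosin heavy chain (-1.87, adjusted p = 0.0060), among the lower and Cald1 (1.86, adjusted p = 0.0050) among the higher. Skeletal muscle also expresses Des and Synpo2, and all 8 skeletal muscle genes examined were lower in K5/K14 tumours, with a summed level of 2566 to 8057 CPM in skin, 6.62 to 543 in K5/K14 and 5.87 to 4843 in Ivl tumours. Its part in the result was not tested.

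Within a library the level of Acta2 could be set against these genes, a measure that scaling between libraries does not touch. This ratio was added after the data were seen and has no test. The log2 ratio of Acta2 to Myh11 was 0.33 ± 0.18 (SD, n = 4) in skin, 1.76 ± 0.92 (n = 6) in Ivl tumours and 2.40 ± 0.58 (n = 9) in K5/K14 tumours, and all 15 tumours were above all 4 skin libraries. Against Cnn1, calponin, it was 3.79 ± 0.27 in skin, 4.51 ± 0.39 in Ivl and 4.85 ± 0.44 in K5/K14 tumours, where all 9 K5/K14 tumours exceeded skin and Ivl overlapped it. Of the 15 libraries, every tumour was above every skin library for both of these ratios. Acta2 to Des was -0.84 ± 0.30 in skin, 1.54 ± 2.21 in Ivl tumours, which overlapped skin over 19 libraries but not over the 15, and 2.84 ± 0.91 in K5/K14 tumours, which did not overlap it. It was -1.09, -0.18 and 0.013 in Ivl 2, 3 and 6, whose skeletal muscle genes summed to 4843, 1623 and 625 CPM. In Ivl 1, 4 and 5 it was 4.01, 3.65 and 2.84, with sums of 5.87, 9.47 and 8.39 CPM. Skeletal muscle also expresses Des, and its part in the ratios to Des was not tested. Tagln to Myh11 and Tagln to Des, with the uncertain counts of Tagln, were higher in all 9 K5/K14 tumours than in skin. For both ratios Ivl tumours overlapped skin over 19 libraries and not over the 15. Tagln to Cnn1 overlapped in every comparison, over 19 libraries and over 15.

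**Figure D3:**
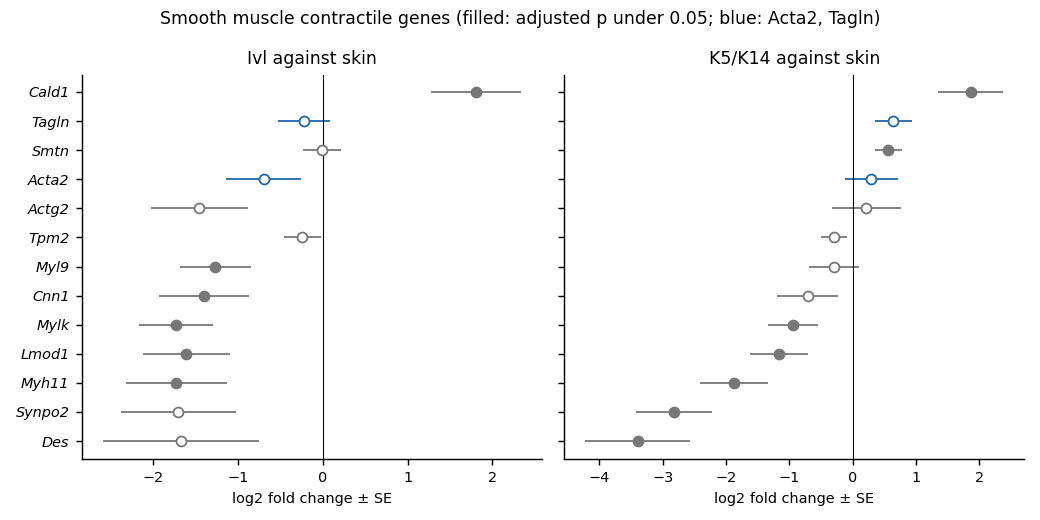
Fitted log2 fold change against skin, with its SE, of 11 smooth muscle contractile genes and of Acta2 and Tagln (blue), over 19 libraries, filled where the adjusted p was under 0.05. Acta2 and Tagln are open in both panels, while Mylk, Lmod1 and Myh11 lie at filled points below 0 in both.

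The promoter of Acta2 carries a pair of CArG boxes, the element bound by serum response factor, which drives contractile genes together with myocardin-family coactivators. The 2 stretches are shown because Acta2 is set here against other genes of the contractile programme, with the box in capitals and 10 bases on either side, from RefSeq on GRCm38.p6, minus strand, at chr19:34255438-34255467 and chr19:34255388-34255417.
Acta2 box 84 to 75 bases before the start: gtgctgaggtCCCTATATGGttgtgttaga
Acta2 box 34 to 25 bases before the start: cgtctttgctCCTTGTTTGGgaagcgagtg
A box was taken as CC, then 6 bases of which at most 1 was not A or T, then GG, a pattern that reads alike on both strands, in the 250 bases before a start. It was found in 9.78% of 27025 genes with a promoter sequence, in 1 of 6 of the stromal genes that had one (Acta2) and in 1 of 9 of the smooth muscle contractile genes (Myl9). This form was chosen after a stricter one, with all 6 core bases A or T, was found in 0 of the 6 stromal genes and in 1.62% of all genes. These matches describe letters only and were not tested as sites.

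The question between tumour groups was whether tumours started from involucrin-positive cells carried another stroma than those started from K5 or K14 cells. None of the 10 genes was called by edgeR between Ivl and K5/K14 tumours, where 2.36% of all genes were called over 19 libraries and 0.41% over the 15. At an unadjusted p under 0.05 there were 6 of 10 (5 over the 15 libraries), all lower in Ivl tumours, where 6754 of 32031 genes (3611 of 31971 over the 15) passed that limit in either direction. DESeq2 called 5 of the 10 lower, where it called 2.36% of all genes lower: Thbs2 (-2.11, adjusted p = 0.0036), Tagln (-0.88, adjusted p = 0.0081), Thbs1 (-1.03, adjusted p = 0.027), Sparc (-1.37, adjusted p = 0.036) and Tnc (-1.18, adjusted p = 0.048).

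Thbs2 had the largest difference, at -2.09 ± 0.60 on the log2 scale (adjusted p = 0.070), which was a level 4.26-fold lower in Ivl tumours. They held 56.0 to 316 CPM with a median of 111, and K5/K14 tumours 261 to 949.9 with a median of 574, so that only Ivl 3 reached the range of K5/K14. Leaving out skin 4 or skin 2, which enter this comparison only through the shared fit, brought Thbs2 to adjusted p = 0.032 and 0.046. Thbs1 was called without skin 4 (-1.03, adjusted p = 0.044), which made 2 genes. Within the 15 libraries Thbs2 differed by -2.69 ± 0.87 (adjusted p = 0.23, and 0.048 without skin 4).

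Sparc was at 363, 689, 1612, 386, 432 and 577 CPM in Ivl 1 to 6, against 1106 to 2152 in K5/K14 tumours (-1.35 ± 0.48, adjusted p = 0.12). Tnc differed by -1.15 ± 0.42 (adjusted p = 0.13), Thbs1 by -1.02 ± 0.33 (adjusted p = 0.094), Acta2 by -0.99 ± 0.38 (adjusted p = 0.14) and Tagln by -0.86 ± 0.26 (adjusted p = 0.077). Fn1 (-0.67), Postn (-0.41), Spp1 (0.58) and Fap (0.72) had adjusted p from 0.36 to 0.67. Ivl 3 was the highest Ivl tumour for Tnc, Thbs2, Sparc, Fn1, Acta2, Tagln and Fap, and it belongs to the set described above as level with the rest.

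Groups did not overlap for 0 of the 10 genes over 19 libraries, where 0.343% of all genes lay entirely lower in Ivl tumours. Over the 15 libraries, 4 of the 10 lay entirely lower in the 3 Ivl tumours (Tnc, Thbs2, Sparc and Tagln), where 2.53% of all genes did. In those 15 libraries dermal fibroblast genes moved the same way: their summed level was 1647 to 2969 CPM in Ivl tumours and 3997 to 12977 in K5/K14 tumours. The summed level of 13 activated fibroblast genes was 279 to 336 and 506 to 1029 CPM. Pericyte genes had a median difference of -1.11 over 19 libraries, with 4 of 7 lower at an unadjusted p under 0.05 (5 over the 15). Endothelial genes had one of -0.77, with 4 of 8 lower (3 over the 15). All genes had a median of 0.11 over 19 libraries, and 6754 of 32031 (3611 of 31971 over the 15) passed that limit in either direction. After adjustment edgeR called none of either list, beside 2.36% of all genes (0.41% over the 15). DESeq2 called 3 pericyte genes, all lower, and 0 endothelial genes, beside 2.36% of all genes called lower. The summed level over the 15 libraries was 306 to 443 CPM in Ivl and 360.1 to 786 in K5/K14 tumours for pericyte genes, and 131 to 223 and 191 to 448 for endothelial genes, with overlap in both. The part of this in the differences of the 10 genes was not tested.

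Between K5 and K14 tumours edgeR called none of the 10 and 0.0% of all genes over 19 libraries, and none of the 10 against 0.0532% of all genes over the 15. DESeq2 called none of the 10 either. At an unadjusted p under 0.05 there were Acta2 (1.14 ± 0.40 higher in K5, adjusted p = 0.72) and Thbs1 (0.88 ± 0.37 higher in K5, adjusted p = 0.77), 2 of the 10 beside 1945 of 32031 genes. It was 1 of the 10 beside 3231 of 31971 over the 15 libraries. Acta2 was at 216, 78.6, 175, 181 and 289.5 CPM in K5 tumours and at 149.7, 82.6, 66.5 and 43.5 in K14 tumours, and the groups overlapped. Tnc was at 347, 468, 485, 627 and 675 CPM in K5 and 359, 411, 267 and 317 in K14 tumours, and they were separate over the 15 libraries (0.74 ± 0.43, adjusted p = 0.58).

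Ratios to fibrillar collagen, the sum of Col1a1, Col1a2 and Col3a1 in the same library, gave another view of the 10 genes, added after the data were seen and with no test. The collagen sum was 734 to 16772 CPM in skin, 1281 to 9751 in Ivl and 3650 to 14563 in K5/K14 tumours. The log2 ratio of Sparc to collagen was steady in skin in spite of this, at -3.41 ± 0.17 (SD, n = 4), and higher in all 15 tumours, at -2.09 ± 0.33 in Ivl and -2.23 ± 0.40 in K5/K14. Tnc to collagen was -7.31 ± 1.68 in skin, -3.94 ± 0.72 in Ivl and -4.23 ± 0.75 in K5/K14 tumours, again with every tumour above every skin library.

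Fap to collagen was lower than skin in all 9 K5/K14 tumours (-11.3 ± 0.72 against -8.30 ± 1.71), while Ivl tumours, at -9.38 ± 0.84, overlapped skin. Postn, Fn1, Spp1, Tagln and Fap to collagen were higher in all 3 Ivl tumours than in all 8 K5/K14 tumours of the 15 libraries, although their levels in CPM overlapped or, for Tagln, were lower. Postn to collagen was -0.85 ± 0.47 in those Ivl and -2.93 ± 0.56 in those K5/K14 tumours. Collagen itself was low in these Ivl tumours, which enters every such ratio.

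The thrombospondins were set against each other in the same way. The log2 ratio of Thbs2 to Thbs1 was 1.26 ± 0.42 (n = 9) in K5/K14 tumours, with Thbs2 the higher in all 9, and -0.06 ± 0.72 (n = 6) in Ivl tumours. Within the 15 libraries the 3 Ivl tumours, at -0.51 ± 0.29, lay below all 8 K5/K14 tumours, at 1.25 ± 0.45. Skin was divided, with skin 3 and skin 4 above 0 and skin 1 and skin 2 below.

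The tenascins parted even more. Tnxb, tenascin X of resting connective tissue, was named after its values were seen. It had a median of 254 CPM in skin, 17.6 in Ivl and 1.90 in K5/K14 tumours. The log2 ratio of Tnc to Tnxb was -2.96 ± 1.48 in skin, 3.23 ± 2.26 in Ivl and 6.92 ± 1.88 in K5/K14 tumours, and all 15 tumours exceeded skin.

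**Figure D4:**
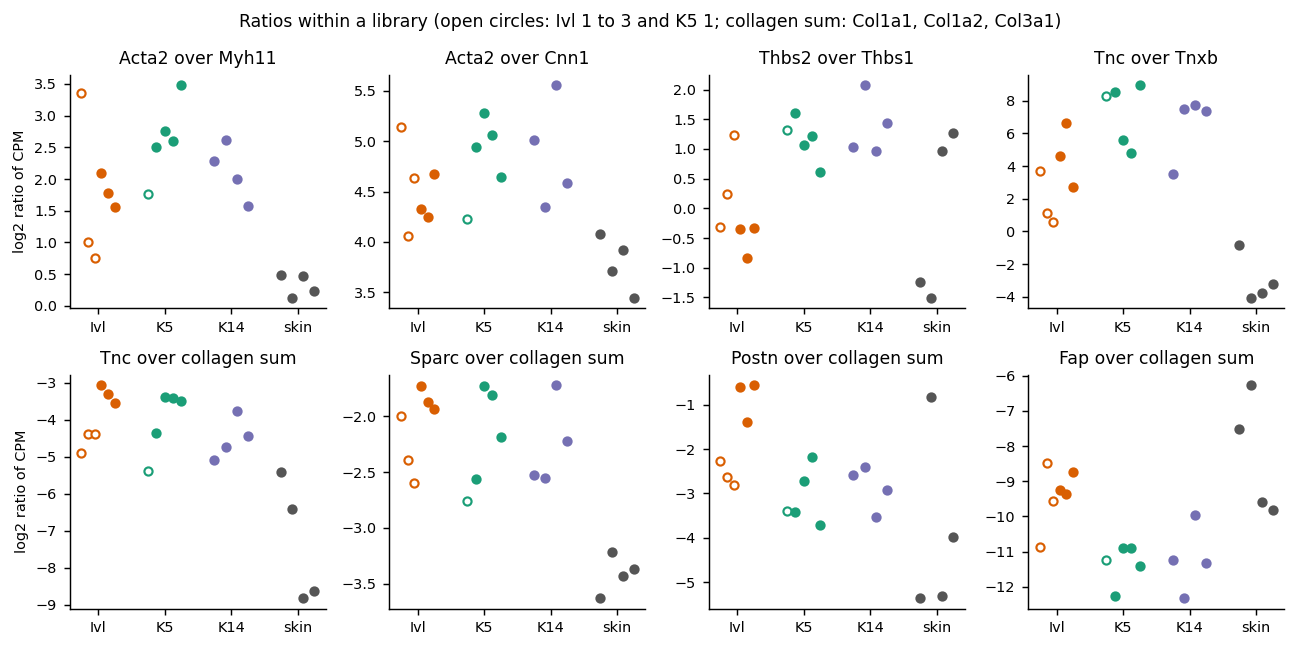
Log2 ratio of CPM between genes of the same library, with 1 circle per library and open circles for Ivl 1 to 3 and K5 1. All tumours lie above all skin libraries for Acta2 over Myh11, Tnc over Tnxb, Tnc over the collagen sum and Sparc over the collagen sum.

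Other matricellular genes were called in both directions. Of 22 relatives of the 10 genes, 3 were higher and 1 lower than skin in Ivl tumours, and 5 were higher and 7 lower in K5/K14 tumours, with medians of -0.05 and -0.40 where all genes had -0.46 and -0.60. The K5/K14 counts were near the 23.2% and 38.9% of all genes, and the Ivl counts did not exceed the 20.4% and 15.5%. Tnn, tenascin N, rose in both (5.30, adjusted p = 0.00058, and 6.06, adjusted p = 0.00013), from 0.416 to 3.45 CPM in skin to 23.0 to 238 in K5/K14 tumours. Ibsp, bone sialoprotein and a relative of Spp1, rose in Ivl tumours (5.43, adjusted p = 0.0081), and Ccn4 rose in both (1.91, adjusted p = 0.013, and 3.53, adjusted p = 9.1e-05). Smoc2, a relative of Sparc, fell in Ivl tumours (-0.99, adjusted p = 0.014).

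Testican genes, also relatives of Sparc, were lower in K5/K14 tumours: Spock1 at -5.69 (adjusted p = 3.0e-05) and Spock2 at -1.82 (adjusted p = 0.0017). Between Ivl and K5/K14 tumours edgeR called 1 of the 22, Spock1, which was higher in Ivl (4.13, adjusted p = 0.021), beside 2.36% of all genes. DESeq2 called 7, of which 3 were higher and 4 lower, beside 1376 higher and 757 lower of 32031 genes. Within the 15 libraries that call held (3.4, adjusted p = 0.025). There, 3 of the 22 were higher and 8 lower than skin in Ivl tumours, beside 22.2% and 32.7% of all genes.

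Receptors for these proteins were called in both directions. Of 14, 2 were higher and 5 lower than skin in Ivl tumours, and 4 higher and 5 lower in K5/K14 tumours. All genes had 20.4% higher and 15.5% lower in Ivl and 23.2% and 38.9% in K5/K14 tumours, so the receptor counts in K5/K14 tumours were near the whole table. Cd44, which binds osteopontin and hyaluronan, rose in both (1.13, adjusted p = 0.00011, and 1.27, adjusted p = 1.2e-05), as did Itgb1, the beta chain of many matrix receptors (1.04, adjusted p = 0.0028, and 1.78, adjusted p = 9.3e-06). Cd47, a receptor of Thbs1, fell in both (-0.78, adjusted p = 0.028, and -1.30, adjusted p = 0.00018), and Itga4 fell in Ivl tumours (-1.47, adjusted p = 0.024). Itga5, the alpha chain of the fibronectin receptor, rose in K5/K14 tumours (2.04, adjusted p = 9.1e-05) and was lower in Ivl than in K5/K14 tumours (-1.27, adjusted p = 0.031, but 0.18 over the 15 libraries). Keratinocytes also express Cd44, Itgb1 and Itga5, and 7 and 8 of 8 keratinocyte genes were higher than skin in Ivl and K5/K14 tumours, with a summed level of 6751 to 13000 CPM in skin and 42049 to 107111 in tumours. Their part in these results was not tested.

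Markers of the cells that could make these proteins moved unevenly. Of 13 activated fibroblast genes, 2 were higher and 1 lower in Ivl tumours, and 4 were higher in K5/K14 tumours, where 20.4% and 23.2% of all genes were higher. Cthrc1, a secreted protein of activated fibroblasts, rose in both (2.36, adjusted p = 0.0078, and 2.69, adjusted p = 0.0015), as did the activin chain Inhba (1.82, adjusted p = 0.028, and 2.40, adjusted p = 0.0029), while the collagen receptor Ddr2 fell in Ivl (-1.15, adjusted p = 0.036). Between Ivl and K5/K14 tumours edgeR called the collagen receptor chain Itga11 lower in Ivl (-2.04, adjusted p = 0.045, but 0.13 over the 15 libraries), and DESeq2 called 4 of the 13 lower. Of 32031 genes in all, edgeR called 190 lower there and DESeq2 757.

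Of 12 dermal fibroblast genes, 1 was lower in Ivl tumours (Fbn1, fibrillin 1, -1.66, adjusted p = 0.032) and 4 in K5/K14 tumours, among them the proteoglycan Dcn (-2.36, adjusted p = 0.011), Clec3b (-4.07, adjusted p = 0.013) and Pi16 (-3.63, adjusted p = 0.022). These counts were 4 and 6 over the 15 libraries. They were near or below the share of all genes called lower, which was 15.5% and 38.9% over 19 and 32.7% and 42.3% over the 15 libraries. Of 7 pericyte genes, 2 were lower in Ivl tumours (Abcc9, -2.02, adjusted p = 0.011, and Cspg4, -1.42, adjusted p = 0.019). In K5/K14 tumours 2 were higher (Mcam, 1.51, adjusted p = 0.0033, and Rgs5, 1.89, adjusted p = 0.0067) and 1 lower (Cspg4, -1.72, adjusted p = 0.0014). Of all genes, 15.5% were lower in Ivl tumours, and 23.2% were higher and 38.9% lower in K5/K14 tumours. Of 10 macrophage genes, which bear on Spp1, 2 were higher in each tumour group, the arginase Arg1 (4.23 in both, adjusted p = 3.1e-05 and 1.2e-05) and Trem2, a lipid receptor (1.64, adjusted p = 0.047, and 2.13, adjusted p = 0.0063). These counts were near the 20.4% and 23.2% of all genes called higher. The summed level of the 10 was 143 to 890 CPM in skin, 635 to 2292 in Ivl and 803 to 2365 in K5/K14 tumours. Whole tissue does not show which cells made Arg1 or Trem2. Of the 10 macrophage genes, 7 had a negative value in each comparison, with medians of -0.79 and -0.65, where all genes had -0.46 and -0.60. Another 2 and 4 of that list were lower over the 15 libraries, where 32.7% and 42.3% of all genes were.

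Across tumours, a part of the 10 genes varied together. Over the 11 tumours outside the set, 45 pairs were examined, and 18 had an adjusted permutation p under 0.05 for Pearson's r of log2 CPM, each with a positive r. Since Ivl and K5/K14 tumours did not overlap for Tnc, Thbs2, Sparc and Tagln there, a pooled r can follow the groups, and the 8 K5/K14 tumours were taken alone, where 5 of 45 pairs passed. These 8 were 4 K5 and 4 K14 tumours, which did not overlap for Tnc. An r over the 8 can thus follow the difference between K5 and K14, and the part of this was not tested. Ivl tumours, at 3, were too few. Pairs of other genes were not counted, so whether the 10 genes varied together more than other genes was not tested.

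Tnc and Fn1 were the closest pair in those 8 tumours (r = 0.96, permutation p = 0.00033, adjusted 0.0074, rho = 0.93, permutation p = 0.0020, adjusted 0.045), and r was 0.92 without the 2 tumours farthest from the median of Tnc. Thbs2 and Fn1 followed (r = 0.94, permutation p = 6e-05, adjusted 0.0027, rho = 0.95, permutation p = 0.00091, adjusted 0.041, and r = 0.94 without 2). Postn and Sparc had r = 0.90 (permutation p = 0.0028, adjusted 0.032) but rho = 0.71 (permutation p = 0.056, adjusted 0.22), with r = 0.80 without 2. Thbs1 and Acta2 had r = 0.89 (permutation p = 0.0036, adjusted 0.032) with rho = 0.86 (permutation p = 0.010, adjusted 0.090) and r = 0.81 without 2. Tnc and Thbs2 had r = 0.88 (permutation p = 0.0011, adjusted 0.017) with rho = 0.88 (permutation p = 0.0070, adjusted 0.082) and r = 0.83 without 2. Spp1 and Fap were in none of the pairs that passed, over 11 or 8 tumours.

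**Figure D5:**
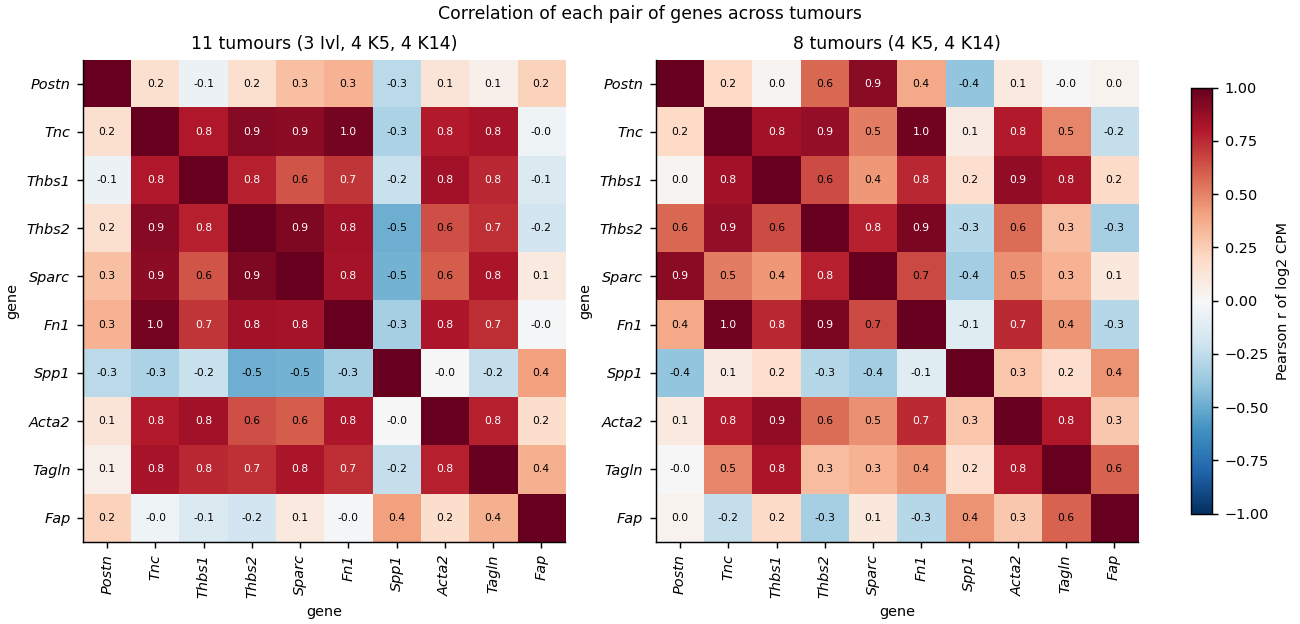
Pearson's r of log2 CPM for each pair of the 10 genes, over the 11 tumours outside the set (left) and its 8 K5 and K14 tumours (right), with red for positive and blue for negative values. Tnc, Thbs1, Thbs2, Fn1 and Acta2 form a red block in both panels, and Spp1 and Fap stand outside it.

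For each of the 10, the gene outside the list with the highest r over the 11 tumours was sought among 9660 genes with a mean of at least 10 CPM, as a description with no test. Thbs2 was closest to C1qtnf6 (r = 0.99), Sparc to Mfap2, a protein of elastic microfibrils (0.99), and Acta2 to Myl9 (0.91). Tnc and Fn1 both had Cdkn2d, an inhibitor of cyclin-dependent kinases, as the closest (0.97 and 0.95), and Spp1 had Psca, a surface antigen of epithelia (0.85). Postn was closest to Fbxo31 (0.93), Thbs1 to Sh2b3 (0.94), Tagln to Obsl1 (0.96) and Fap to Rnf115 (0.92). All these points share library depth and the difference between Ivl and K5/K14 tumours.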

How the data were processed

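Poly(A) RNA from 15 tumours and 4 skin samples had been sequenced with a strand-specific kit. Per the labels and methods, the authors trimmed reads (Trim Galore), aligned them to GRCm38 with HISAT2 2.1.0, counted genes with featureCounts (Subread 1.6.3) and adjusted the table for a batch with ComBat-seq. The deposited values are thus estimated counts, all of them whole numbers, treated as such in place of the plain counts the design had assumed. Which library was in which batch is not given in the sources used here.

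Of 34807 identifiers, 34694 matched GENCODE M21 (GRCm38), which gave names and exon lengths. Genes reaching 5 counts in any 1 library were tested with edgeR 4.0.16 (TMM scaling, quasi-likelihood, robust) in R 4.3.3, with DESeq2 1.42.0 as an alternative, and K5 and K14 were merged as in the study. An adjusted p under 0.05 over all genes was a call. The fits were tested on simulated data. Within-group pairs of libraries differed beyond counting noise. Log2 CPM used a prior count of 2, and permutations numbered 100000.

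The 10 genes and all lists were chosen with earlier results of these data known. Named were the 10 genes, for each list and comparison up to 4 genes with the smallest adjusted p, and for each of the 10 its most similar gene. Ratios, and naming Tnxb, Dpp4, Cnn1, Des in ratios and Col1a1, Col1a2 and Col3a1, came after values were seen. Alternatives were other scalings, filters and tests, the 15 libraries, a term for the set of 4 libraries, a replicate block and leaving out each library.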

Additional observations from a re-analysis of the deposited data

Results flagged for a closer look

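Thbs1 held both of the values that stood apart within their group among 50 combinations of gene and group examined, where chance gives about 1 in 20. In Ivl tumours, Ivl 6 was low at 70.4 CPM. Its gap to the nearest tumour, on the log2 scale, was 0.71 of the range of the group, above Dixon's critical value for a group of 6. In normal skin, skin 4 was high at 327 CPM, and the gap on the log2 scale was 0.979 of the range, above the critical value for a group of 4.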

How the results depend on the processing

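Calls of the 10 genes against skin numbered 3 in both tumour groups under each alternative with all samples, except that DESeq2 gave 4 in K5/K14 tumours and that 2 remained where Spp1 (K5/K14) or Fap (Ivl) was lost. Leaving out 1 library gave 1 to 3 calls in Ivl and 2 to 6 in K5/K14 tumours, or 2 to 5 and 2 to 6 within the 15 libraries. In these fits 31235 to 32025 genes were tested. Of them, 9165 to 14757 were called in Ivl and 17638 to 20469 in K5/K14 tumours, or 14215 to 17541 and 19621 to 21198 within the 15. Between Ivl and K5/K14 tumours, leaving out 1 library gave 0 to 2 and 0 to 1 of the 10, beside 127 to 1328 and 50 to 225 of all genes. DESeq2 gave 5 in place of 0 there. Pairs of genes numbered 18 over 11 tumours, 23 over all 15 and 5 over 8 K5/K14 tumours. Same-numbered libraries of different groups did not deviate together at the median (r = -0.0071, beside -0.0084 for other pairs). Their r ran from -0.48 to 0.39 over 25 pairs, 9 over 0.1. The values were batch-adjusted, so this check cannot exclude a shared origin, and the main fits did not pair libraries by number. With a replicate block Fap lost its call in Ivl tumours (-1.40, adjusted p = 0.12), and Sparc in Ivl (0.10) and Fn1 in K5/K14 tumours (0.11) reversed, and neither was called. Scaling with DESeq2 size factors or filterByExpr took Spp1 in K5/K14 tumours to adjusted p = 0.052 and 0.0504. Between K5 and K14, Fap reversed to -0.0012 with filterByExpr, -0.30 within the 15 libraries and -0.32 with a term for the set, and Sparc to -0.029 with that term. Leaving out 1 library also reversed values that were not called: Thbs1 (-0.49 to 0.41, and -0.62 to 0.30 within the 15), Thbs2 (-1.40 to 0.70) and Sparc (-0.66 to 0.49) in Ivl against skin, Fn1 (-0.81 to 0.41, and -0.96 to 0.26) and Acta2 (-0.066 to 0.44 within the 15) in K5/K14 against skin, Postn (-0.65 to 0.049) and Fap (-0.44 to 0.32) in Ivl against K5/K14 within the 15, and Sparc (-0.031 to 0.26, and -0.11 to 0.17 within the 15, with -0.021 and -0.0039 among them), Tagln (-0.048 to 0.43) and Fap (-0.30 to 0.28, and -0.47 to -0.063 within the 15, with -0.17, -0.26, -0.29, -0.31, -0.40 and -0.45 among them) in K5 against K14. The cause of these changes was not tested. Tagln, Fap and Spp1 had the lowest levels of the 10, and what depth limited was not compared between genes.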
